A study of Mus musculus with 8 samples.

Results

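Peaks of N6-methyladenosine (m6A) on the shortest protein-coding genes of mouse embryonic stem cells were described with and without knockdown of Setd2. A gene was taken as short when its RefSeq interval, introns included, spanned under 3000 nt. Peaks were assigned to genes by location and strand, through the Ensembl identifier that the authors' deposited tables give each peak. This gave 1300 peaks on 465 short genes, 652 in the table of doxycycline (Dox) cells and 648 in the table of control cells, of 53427 peaks on 13110 identifiers in all (27612 Dox and 25815 control). Another 37820 peaks lay on 8153 longer mapped genes, and identifiers that could not be given a gene with a known strand were not analysed here.

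The cells were feeder-free mouse embryonic stem cells that carried a Dox-inducible knockdown of Setd2 and grew as spheres in serum-free 2i medium, with 1 µM PD0325901 (an inhibitor of MEK), 3 µM CHIR99021 (an inhibitor of GSK3) and 1000 U/ml of leukemia inhibitory factor (LIF). Dox cells received 1 µg/ml Dox for 4 days and control cells received none, so both groups carried the construct and grew with the same inhibitors. No Dox-treated cells without the construct are among the samples, and knockdown and Dox as such cannot be told apart. Both groups gave m6A immunoprecipitated (IP) RNA and input RNA from 2 replicates each, 8 libraries in all, and nothing in the labels says that the replicates came from separate cultures. Each table pools the replicates of its group, so there is no replicate spread, the depth behind a peak is unknown and no difference between the groups was tested. Percentages carry exact (Clopper-Pearson) 95% intervals, which treat peaks as independent and cover no error but that of counting.

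SETD2 places the H3K36me3 mark on the bodies of transcribed genes, and m6A is written on nascent RNA by the METTL3 and METTL14 enzyme complex, mostly within a short consensus that often holds the letters GGAC. In long genes m6A is known to gather in long internal exons and near the stop codon. Short genes include replication-dependent histones, ribosomal proteins, small mitochondrial proteins and intronless transcription factors, in which the start, the coding sequence and the end of the message lie within a few peak widths of each other. Among markers of embryonic stem cells, Pou5f1, Sox2, Nanog, Esrrb, Zfp42 and Klf4 all carried peaks in both tables, but only Sox2 is a short gene. A peak table does not measure transcript level, so it checks neither the cell type nor the knockdown.

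Stretches from the first 50 bases after an annotated start of 8 short genes are shown because the lists differed at such starts and on histone H2A genes. They were chosen among starts that hold the letters GGAC, which stood in 23.5% of the starts covered in both tables and in 30.4% of those covered in control only. In each of these groups the starts with the lowest false discovery rate (FDR) of the control peak were taken. H2A (H2ac) genes were only 4 of the 46 starts covered in control only, so the stretches are not typical of them. Each stretch is from RefSeq (GRCm38.p6, the assembly of mm10), reads 5′ to 3′ on the coding strand, and has the letters GGAC in capitals. Peaks of both tables covered the first 4 starts, which belong to Banf1 (a chromatin and nuclear envelope protein), Ftl1 (the ferritin light chain), Hmga1b (a close copy of the architectural chromatin protein Hmga1) and Mrpl57 (a protein of the mitochondrial ribosome). They lie at chr19:5366334-5366363 (minus strand), chr7:45459837-45459866 (minus), chr11:120762794-120762823 (plus) and chr14:57826259-57826288 (plus).
Banf1: gcgGGACctgagaggcgtggaagaggccgg
Ftl1: aaaaggagcgctccttgcccgGGACttaga
Hmga1b: cctctaattgGGACtccgagtcggggctat
Mrpl57: gccgcatcggtcgggGGACgcggagcgccg
At the next 4 starts only the control peak covered at least 25 of the first 50 bases. They belong to Bex4, a small brain-expressed X-linked protein, at chrX:136139016-136139045 (plus), where the Dox peak held the last 20 bases of the printed stretch, its GGAC included, and to the H2A genes H2ac11 at chr13:22042902-22042927 (minus), H2ac13 at chr13:21716422-21716447 (plus) and H2ac24 at chr13:21833450-21833475 (minus). The H2A stretches open with atg.
Bex4: cctcgctgggtctcGGACctgccctcgctc
H2ac11: atgtctGGACgcggcaaacagggcgg
H2ac13: atgtctGGACgcggcaagcagggcgg
H2ac24: atgtctGGACgcggcaagcagggtgg

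A smaller share of short genes than of longer ones carried a peak, and the share was higher in each longer class of the short genes. Of the 2810 short RefSeq genes with a known strand, 465 (16.5%) carried a peak in at least 1 table, against 8153 of 14682 longer genes (55.5%). Under 1000 nt, 4.44% of 1352 genes had a Dox peak and 3.99% a control peak, and from 2500 nt up to the limit the values were 41.1% and 38.8% of 304 genes. The short genes without a peak included all 1054 olfactory and taste receptor genes, which serve in sensory cells. The 465 genes were from 448 nt up to the limit in length, with a median of 2037 nt, against 1023 nt for all short RefSeq genes. Only transcribed genes can carry a peak, and transcript levels were not measured in these tables.

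**Figure D1:**
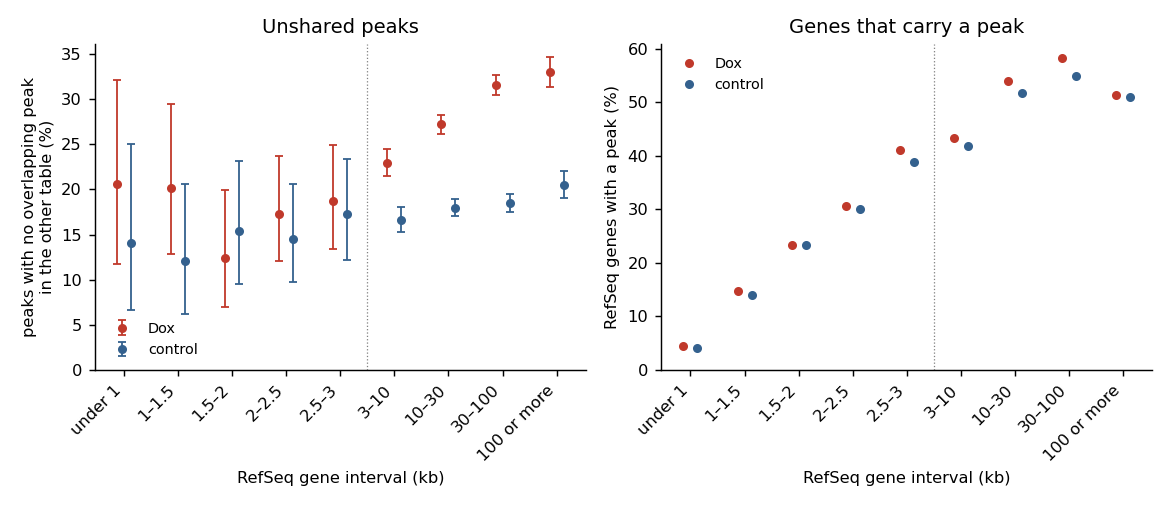
Peaks by gene length, from the class under 1 kb to 100 kb or more of RefSeq interval, with Dox in red left of control in blue. The left panel gives the percentage of peaks with no overlapping peak in the other table (bars: exact 95% intervals) and the right panel the percentage of RefSeq genes with a peak; the dotted line marks 3 kb, and the Dox share of unshared peaks lies at 12.4% to 20.6% in the 5 short classes and at 22.9% to 33.0% in the 4 longer ones.

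Most short genes with m6A carried it in both groups. Peaks stood in both tables for 394 of the 465 genes (84.7%, interval 81.1% to 87.9%), in the Dox table only for 45 (9.68%, 7.15% to 12.7%) and in the control table only for 26 (5.59%, 3.68% to 8.09%). Over all 13110 identifiers the shares were 79.9%, 11.1% and 8.92%, and over the longer mapped genes 84.2%, 9.78% and 6.0%, so the short genes stood close to the longer ones. The order of the last 2 counts hung on the threshold. With both tables limited to a fold of at least 4, where fold is the authors' ratio of IP over input for a peak, 29 of 351 short genes were in the Dox table only (8.26%) and 107 in the control table only (30.5%), against 12.0% and 27.9% over all identifiers and 11.1% and 24.8% over longer genes.

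A short gene usually had a single peak. Of 439 genes in the Dox table, 287 had 1 peak, 105 had 2, 35 had 3, 10 had 4 and 2 had 5. Of 420 genes in the control table, 257 had 1 peak, 115 had 2, 37 had 3, 8 had 4, and 1 gene each had 5, 6 and 7. The mean was 1.49 peaks per gene in the Dox table and 1.54 in the control table, against 2.56 and 2.47 on longer genes. Among the genes with peaks in both tables, 60 (15.2%) had more peaks in Dox, 258 (65.5%) the same number and 76 (19.3%) fewer. On longer genes 31.8% had more in Dox and 24% fewer, so the balance stood the other way round there.

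Some of the highest peak numbers came from near-duplicate peaks or from sequence outside the gene. Dio3 encodes the deiodinase that inactivates thyroid hormone, and its 1868 nt held 5 Dox and 6 control peaks. Dox peaks began at 110279933 and at 110279940 of chromosome 12 (plus strand) and ended 1 nt apart, with folds of 4.73 and 4.79. Bola2, which takes part in iron-sulfur cluster assembly, had 4 peaks in each table within an interval of 694 nt, of which 3 had the same bounds in both tables. Its widest peak, 918 nt in both tables, reached 510 nt beyond the RefSeq interval and therefore came to 132% of it. Its folds were 6.01 in Dox and 14.8 in control cells. Ocel1 carried 5 Dox and 7 control peaks, but 2 of the Dox and 4 of the control peaks lay downstream of its RefSeq end, so this identifier covers more sequence than the gene it was mapped to. Use1, a SNARE protein of retrograde transport to the endoplasmic reticulum, had 4 peaks in each table, which covered 60% of the gene in Dox and 64.1% in control cells.

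Peaks were wide for the genes that held them. Dox peaks of short genes had a median exonic width of 296 nt (quartiles 180 and 454) and control peaks 267 nt (179 and 416), against 241 and 238 nt on longer genes. As a share of the gene interval the median was 15.6% in Dox (quartiles 9.02% and 27.1%) and 13.6% in control (7.92% and 26.7%), against 0.820% and 0.782% on longer genes. The median width in nt hardly followed gene length, at 226 nt in Dox and 280 nt in control for genes under 1000 nt and at 270 and 239 nt for genes of 2500 nt or more. The share of the gene therefore dropped across these classes, with 37.3% in Dox and 39.9% in control at the shortest and 10.4% and 8.69% at the longest. Folds of short-gene peaks stood somewhat above those of all peaks in both tables. The median was 3.88 in Dox and 5.84 in control, against 3.51 and 4.62 over all peaks. A fold of at least 2 was reached by 87.7% of Dox and 91.7% of control peaks, against 87.0% and 91.5% of all peaks, so the tables hold few peaks under it. At 4 or more there were 310 Dox (47.5%) and 425 control peaks (65.6%), against 41.3% and 57.8% of all peaks. At 8 or more there were 76 (11.7%) and 241 (37.2%), against 9.40% and 26.8%. The control share was the higher at each of these limits, on short genes as among all peaks. A single exon block made up 69.0% of Dox and 71.8% of control peaks, against 57.3% and 58.8% of all peaks.

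**Figure D2:**
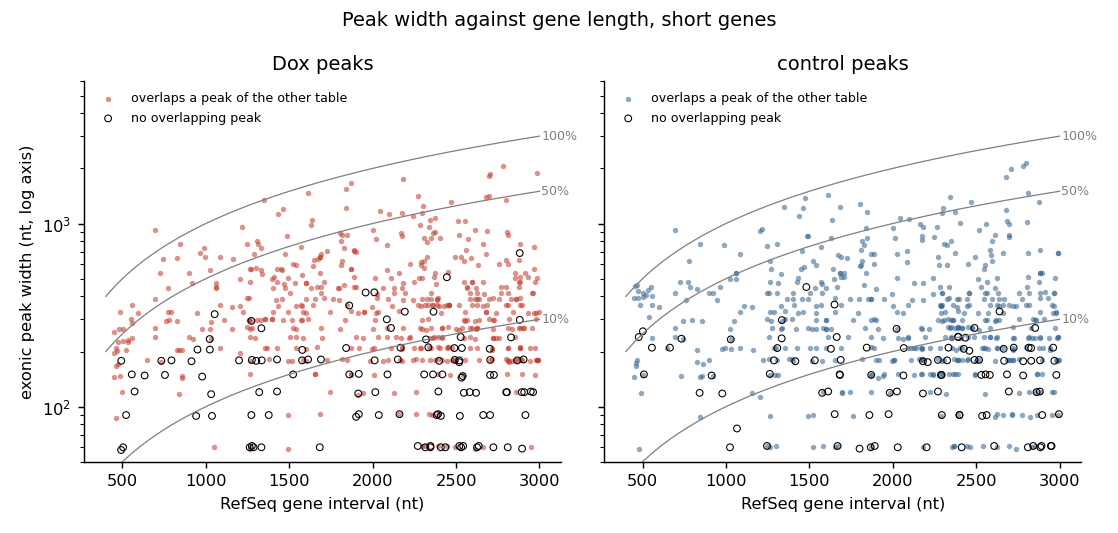
Exonic width of each peak (log axis, nt) against the RefSeq interval of its short gene (nt), with 652 Dox peaks on the left and 648 control peaks on the right. Open circles have no overlapping peak in the other table, grey lines mark widths of 10%, 50% and 100% of the gene, and open circles lie low, with median widths of 149 nt in Dox and 150 nt in control.

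Summed over the gene, peaks covered a median of 27.8% of the interval in Dox and 24.7% in control for the 394 genes with peaks in both. At least 50% was covered in 84 genes in Dox and in 80 in control. Rpp25, an intronless gene for a subunit of RNase P and RNase MRP, was covered along all of its 1346 nt by 1 Dox peak (fold 4.18) and along 91.1% by 1 control peak (fold 6.15). Rbmxl2, an intronless germ-line relative of the splicing factor gene Rbmx, was covered by 2 Dox peaks over 76.1% and by 1 control peak over 94.0%, with top folds of 4.51 and 34.4. Hspa1a, an intronless gene for an inducible HSP70 chaperone that was chosen after its values were seen, had 3 Dox peaks where the control table had 1 peak of 2128 nt over 76.1% of the gene. The threshold of 3000 nt cut through like genes. Just under it, Arf5 (a small GTPase, 2999 nt) had peaks of 11% of its length in Dox and 6.0% in control, and Gimap9 (2996 nt) had a control peak of 3.04%. Just over it, Ccdc115 (3003 nt) had peaks of up to 11% in Dox and 7.99% in control, and Atp6v0b (3004 nt) had a control peak of 7.96%.

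The overlap of the lists was high. Of the 652 Dox peaks on short genes, 115 (17.6%, 14.8% to 20.8%) shared no exonic nucleotide with a control peak, against 29.1% of all Dox peaks and 29.0% (28.3% to 29.6%) on longer genes. Of the 648 control peaks, 98 (15.1%, 12.5% to 18.1%) shared none with a Dox peak, against 19.3% of all control peaks and 18.3% (17.7% to 18.9%) on longer genes. Both shares thus lay below those of longer genes, more so for Dox peaks. Short-gene peaks were also wider and had lower FDRs: 67.3% of Dox and 70.2% of control peaks had a log10 FDR of -5 or less, against 56.9% and 64.3% of all peaks and 57.9% and 65.3% on longer genes. Their part in the overlap was not tested, and the difference itself was not tested since peaks of 1 gene share their reads.

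Weak, narrow peaks made up most of what the lists did not share. The median width was 149 nt for unshared and 329 nt for shared Dox peaks, and 150 nt for unshared and 298 nt for shared control peaks. Above a log10 FDR of -5, 89 of 213 Dox peaks (41.8%, 35.1% to 48.7%) and 72 of 193 control peaks (37.3%, 30.5% to 44.5%) had no partner, against 52.4% and 39.1% on longer genes. From -5 down to -20 the shares were 9.14% in Dox (18 of 197, 5.51% to 14.1%) and 15.3% in control (24 of 157, 10% to 21.9%), against 21.0% and 14.3% on longer genes. At -20 or less they were 3.31% in Dox (8 of 242) and 0.671% in control (2 of 298), against 2.45% and 1.23%. In both tables the unshared share was smaller the lower the FDR. Which table had more unshared peaks depended on the list. With both tables at a fold of at least 4, 20.6% of Dox and 42.8% of control peaks had no partner, against 31.6% and 45.7% of all peaks so limited. In the stricter lists that the authors also deposited (peaks with p up to 1e-05 and fold from 2.00) the shares were 13.8% and 19.7%, against 22.3% and 24.0% over the whole of these lists. These stricter lists held 64.4% of the Dox and 70.5% of the control peaks of short genes, against 56.1% and 65.5% of all peaks.

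Few peaks had bounds that were the same to the nucleotide, at a share close to that of all peaks. Identical bounds in both tables were found for 51 short-gene peaks (7.82% of Dox and 7.87% of control peaks, against 6.45% and 6.90% of all peaks). Peaks that overlapped 2 or more peaks of the other table came to 79 in Dox (12.1%) and 68 in control (10.5%), against 8.18% and 4.93% of all peaks. Over the 394 genes in both tables, peaks covered 232764 nt in Dox and 218509 nt in control, of which 183790 nt were common, 79.0% of the Dox and 84.1% of the control sequence. All peaks of both tables had a partner in 285 of these genes, and in 13 the tables had no nucleotide in common. Of 190 genes with a single peak in each table, the peaks overlapped in 179. The common sequence and these gene counts were not worked out for longer genes, so they say nothing particular about short ones.

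Where a Dox and a control peak overlapped each other and no other peak, the Dox peak was more often the wider of the pair and usually had the lower fold. There were 404 such pairs on short genes. The Dox peak was wider in 211 (52.2%), equal in 52 and narrower in 141 (34.9%), with median widths of 326 nt in Dox and 297 nt in control, against 58.4% wider and 28.4% narrower over all 12202 pairs of mapped genes. The Dox fold was the lower in 286 of 404 pairs (70.8%), against 65.7% over all mapped pairs. The median fold was 3.98 in Dox and 5.82 in control, and the median ratio of Dox over control was 0.763 on short genes and 0.819 on longer ones. Folds of lists called apart depend on depth and on the IP, so these ratios describe the lists. The 3′ bound was the same in 111 pairs, lay further 3′ in Dox in 209 and further 5′ in Dox in 84. The 5′ bound was the same in 148, lay further 3′ in Dox in 139 and further 5′ in 117.

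**Figure D3:**
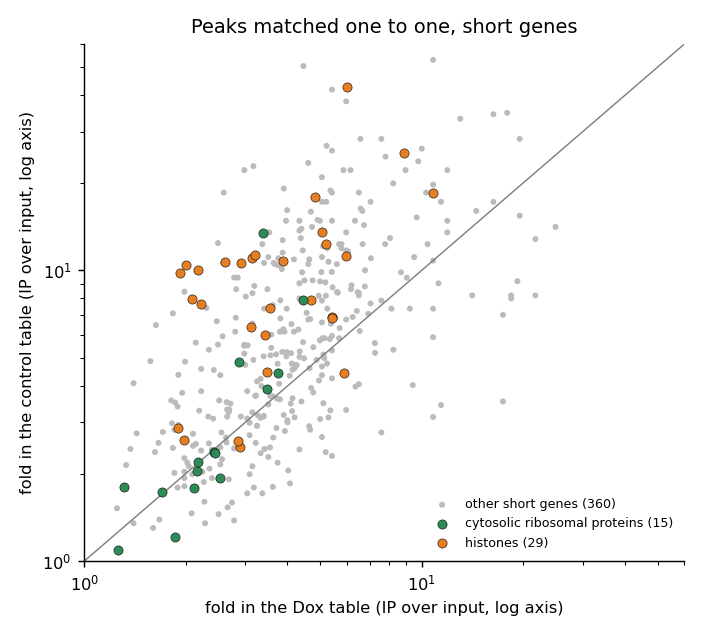
Fold (IP over input, the authors' ratio, log axes) in the Dox table on x against the control table on y for 404 pairs of overlapping peaks on short genes. Points above the line had the lower fold in Dox: 286 of 404 pairs, among them most of the 29 histone pairs in orange (H3c genes included), while the 15 pairs of cytosolic ribosomal proteins in green lie on both sides.

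Folds of pairs were set side by side by gene group, and differences between the groups were not tested. Immediate early genes, whose messages appear quickly after a stimulus and are short-lived, had peaks on 9 of 11 short members, and in 9 pairs, of which 6 had the lower fold in Dox, the median fold was 5.36 in Dox and 12.4 in control. Jund, a subunit of the AP-1 factor, had 2 Dox peaks with a top fold of 9.31 and 1 control peak with a fold of 21.7, and Ier5l had 2 pairs, with folds of 8.23 and 19.9 in one and 3.51 and 11.1 in the other. Klf2, a zinc finger factor of naive pluripotency, had 2 pairs that ran in opposite directions, with folds of 2.49 in Dox and 12.4 in control at the 5′ pair and of 4.0 and 3.05 at the 3′ pair. The stem cell factors Sox2 and Foxd3 had the lower folds in Dox. Sox2 (ENSMUSG00000074637.7, chr3:34649995-34652461, plus strand), a single-exon gene, had 1 peak of 1312 nt in each table, 53.2% of the gene, with folds of 6.17 in Dox and 8.61 in control. Foxd3 had Dox peaks with folds of 3.25 and 7.08 under 1 control peak with a fold of 21.8, and a pair with folds of 5.06 in Dox and 20.9 in control. Lsm10, a subunit of the U7 particle that trims histone messages, had 1 peak in each table with folds of 7.59 in Dox and 28.3 in control.

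Genes of protein synthesis and energy metabolism had pairs in both directions. Cytosolic ribosomal proteins carried peaks on 17 of 30 short genes, and in 15 pairs the Dox fold was lower in 8 and higher in 7, with median folds of 2.43 in Dox and 2.19 in control. The ratio of Dox over control had a median of 0.995 and ran between 0.253 and 1.54, and the lowest value was that of Rpl7a, with 3.39 in Dox and 13.4 in control. Rpl12 had folds of 3.49 in Dox and 3.92 in control in its strongest pair, and Rpl10a 2.18 and 2.19. Fau, which encodes ribosomal protein S30 fused to a ubiquitin-like protein, had folds of 2.16 and 2.04 in its pair, and a Dox peak further 5′ (fold 2.68) had no partner. Ribosomal protein genes have many processed copies in the genome, so reads of these genes may be split and their values are uncertain. All 11 short genes for mitochondrial ribosomal proteins carried a peak, and their 8 pairs had median folds of 3.50 in Dox and 4.59 in control and ratios between 0.383 and 1.78 (median 0.827). Oxidative phosphorylation genes carried peaks on 12 of 17, with medians of 2.78 and 3.69 in 9 pairs and ratios between 0.294 and 1.26 (median 0.981). Among these, Uqcc3, which takes part in the assembly of respiratory complex III, had 4.91 in Dox and 14.9 in control. Atp5k, named by the same rule, had the higher fold in Dox, with 4.13 and 3.28. Ndufb10, the last named by it, had top folds of 3.81 in Dox and 5.99 in control. Over all short-gene pairs the median ratio was 0.763, with quartiles of 0.456 and 1.06.

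The Dox fold was the higher in 117 of 404 pairs (29.0%). Sfn, which encodes the 14-3-3 sigma protein and was chosen after its values were seen, had folds of 21.7 in Dox and 12.8 in control at log10 FDRs of -243 and -Inf. Id2, an inhibitor of basic helix-loop-helix factors, had a Dox peak of 296 nt with a fold of 5.42 and a control peak of 178 nt with a fold of 2.30, while its relative Id3 had folds of 3.70 in Dox and 5.14 in control. Kctd11, an intronless gene of the BTB family, had folds of 24.9 in Dox and 14.1 in control at log10 FDRs of -5.40 and -5.21. High folds of weak peaks are coarse in these tables. Among peaks with a fold of at least 8, 46 of 76 Dox and 71 of 241 control peaks on short genes had a log10 FDR above -8. Of these, 31 and 45 were whole multiples of 1.0845 in Dox and 1.2300 in control, within the rounding of the deposited values. Over all such peaks, 80.4% of 1891 in Dox and 77.3% of 2628 in control were multiples, so the steps are not particular to short genes.

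In 19 genes with peaks in both tables the single control peak had a log10 FDR listed as -Inf, a tie that includes Sox2, Rpl7a, Uqcc3 and Sfn. In 18 of the 19 the highest Dox fold was below the control fold, and Sfn had it above. These genes were picked for a strong control peak, so nothing is read from that count. The 6 described next are a pick among the tied genes that no value decided. Banf1 (ENSMUSG00000024844.14, chr19:5364633-5366876, minus strand) had peaks of 382 nt in Dox and 411 nt in control with the same 3′ bound, a fold of 4.99 in Dox and 14.8 in control, and a log10 FDR listed as -Inf in both tables. Mrps26, a protein of the small mitochondrial ribosomal subunit, had peaks of 1045 nt in both tables with folds of 5.78 and 11.9. Mrpl43, of the large subunit, had folds of 5.44 in Dox and 8.74 in control. Marcksl1, a regulator of actin, had folds of 5.25 and 11.9, Bex3 had 4.73 and 14.1, and Hnrnpa0, an intronless RNA-binding protein gene, had a top fold of 4.59 over 2 Dox peaks and 10.4 in its single control peak.

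Along the gene, control peaks lay further 5′ and Dox peaks further 3′, as they did on longer genes. Median midpoints lay at 53.3% of the interval in Dox and 48.3% in control, against 76.2% and 71.1% on longer genes. With the interval cut from 5′ to 3′ into 5 equal bins of 20%, there were 130, 115, 126, 148 and 124 Dox peaks and 156, 121, 125, 128 and 103 control peaks. Unlike longer genes, which had 45.9% of Dox and 42% of control peaks in their last 20%, short genes had 19.3% and 16.3% there. Control peaks of the first 20% had no Dox partner in 41 of 156 cases (26.3%, 19.6% to 33.9%), against 8.0% to 11.6% in the other bins. Among control peaks of all mapped genes in the first 20% the share was 32.7%, so the short genes did not exceed it. Dox peaks of the first 20% had no control partner in 20 of 130 cases (15.4%, 9.66% to 22.8%), and 19.0% did so over all mapped genes. In the last 20% the order was the other way round, with 25.8% of Dox peaks (32 of 124, 18.4% to 34.4%) and 10.7% of control peaks (11 of 103, 5.45% to 18.3%) unshared, against 31.1% and 12.0% over all mapped genes.

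The gap at the 5′ end was there in strong peaks too. With peaks limited to log10 FDRs of -5 or less, 14 of 105 control peaks in the first 20% (13.3%, 7.49% to 21.4%) had no Dox partner, against 10 of 342 in the rest of the gene (2.92%, 1.41% to 5.31%). Over all mapped genes the shares were 16.8% and 4.34%, so the gap was there on genes in general. For Dox peaks the values were 4 of 80 (5.0%, 1.38% to 12.3%) and 22 of 356 (6.18%, 3.91% to 9.21%), against 6.63% and 12.6% over all mapped genes. In all, 26 Dox (3.99%) and 26 control peaks (4.01%) of short genes were that strong and had no partner, against 6.62% and 4.86% of all peaks. Their median fold was 2.1 in Dox, with 13 under 2, and 8.12 in control, with 3 under 2.

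**Figure D4:**
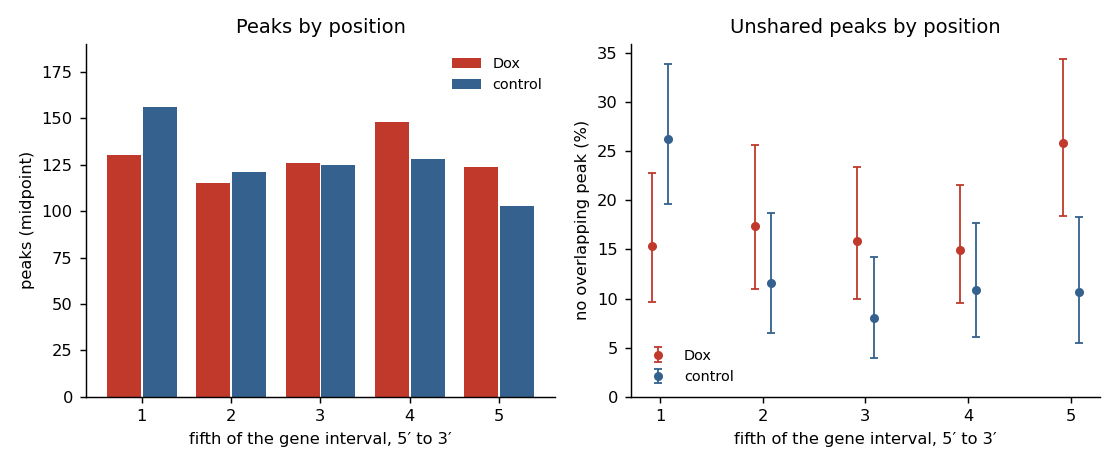
Peaks of short genes by the 20% bin of the gene interval that holds their midpoint, bins 1 to 5 from 5′ to 3′, Dox in red left of control in blue. The left panel counts peaks and the right panel gives the percentage with no overlapping peak in the other table (bars: exact 95% intervals), with control highest in the first bin at 26.3% and Dox highest in the last at 25.8%.

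At annotated RefSeq starts the lists differed in the same direction. A start was called covered when a peak held at least 25 of its first 50 bases. Each gene gave 1 start, the one with the most bases under peaks of both tables. The start was thus in part picked by the peaks and can lie inside the gene interval. On Banf1 it lies at chr19:5366314-5366363, while the interval on the minus strand begins at 5366876. The same choice was made for all mapped genes. Peaks of both tables covered 85 of 465 starts (18.3%), Dox peaks only 11 (2.37%, 1.19% to 4.19%) and control peaks only 46 (9.89%, 7.33% to 13.0%), of which 41 were not histone genes. Over all 8618 mapped genes the shares were 11.2%, 2.08% and 10.4%, so starts covered in control only were about as common on genes in general. With at least 1 base held, a limit added once values were known, the counts were 110 in both, 21 in Dox only and 53 in control only. Of the starts called at 25 bases, 72 of the 85 in both had log10 FDRs of -5 or less in both tables. The covering peak met that limit at 9 of the 11 starts in Dox only and at 33 of the 46 in control only. Starts were not called anew at that limit, and it was not applied to all mapped genes. On Banf1, Ftl1, Hmga1b and Mrpl57, printed above, both peaks covered the chosen start, with folds of 4.99 and 14.8, 5.22 and 26.8, 4.95 and 8.17, and 4.18 and 10.9 in Dox and in control.

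Of the 46 starts covered in control only, 32 had a control peak that overlapped a Dox peak further in, and at 14 it overlapped none. At 11 of the 46 a Dox peak held some bases of the start, though too few to call it covered. The 11 starts covered in Dox only split alike: at 8 the Dox peak overlapped a control peak and at 3 none. At 1 of these a control peak held some bases of the start. The split was not worked out for all mapped genes, so nothing particular to short genes is read from it. The Bex4 control peak began at the first base (chrX 136138996, fold 13.5) and the Dox peak 30 nt later (136139026, fold 3.53), with 568 nt in both. Other starts of this kind, chosen after their values were seen, included Romo1, a mitochondrial inner membrane protein, with a Dox peak of 359 nt (fold 11.9) and a control peak of 568 nt (fold 14.8) that ended at the same base. Rpl7a had a Dox peak of 386 nt (fold 3.39) and a control peak of 505 nt (fold 13.4), again with a common end. Oaz1, the antizyme that limits polyamine synthesis, had at its start a Dox peak of 179 nt (fold 1.63) and a control peak of 298 nt (fold 6.48). Cited2, a transcriptional coregulator, had Dox and control peaks of 358 and 388 nt with folds of 2.58 and 10.6.

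The letters GGAC stood in the first 50 bases of 20% of all 17492 protein-coding starts and of 20.4% of the 465 short genes with a peak, read on the coding strand only. For short genes with a peak the start was chosen by coverage, and among all protein-coding starts the first listed of each gene was taken. The share was 23.5% for starts covered in both tables (20 of 85), 27.3% for Dox only (3 of 11), 30.4% for control only (14 of 46) and 18% for neither (58 of 323). GAAC, AGAC and AAAC were searched as well, and at least 1 of the 4 stood in 48.2% of short genes with a peak and in 48.6% of all starts. The windows differ in base composition, with 68.2% G and C for control only and 60.1% for all starts. A match describes the letters in the window and does not show a methylated base.

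Replication-dependent H2A genes differed in peak extent in the same direction wherever each table had a single peak. These intronless genes, 448 to 596 nt long, make the core histone during DNA replication, and their messages end in a stem-loop rather than a poly(A) tail. Of 17 short H2ac genes, 16 carried a peak, 15 in both tables and H2ac1 in the control table only. In all 14 genes with a single peak in each table the Dox peak began further in, 183 to 291 nt from the gene start (median 248) against -4 to 186 nt for the control peak (median 71.0), a shift of 84 to 260 nt (median 176). The 3′ bound was the same in 10 of the 14. The Dox peak was the narrower in all 14, with median widths of 230 nt in Dox and 404 nt in control, and the Dox fold was the lower in all 14, with medians of 3.02 and 9.88. Over all mapped pairs 28.4% had the narrower and 65.7% the weaker peak in Dox.

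**Figure D5:**
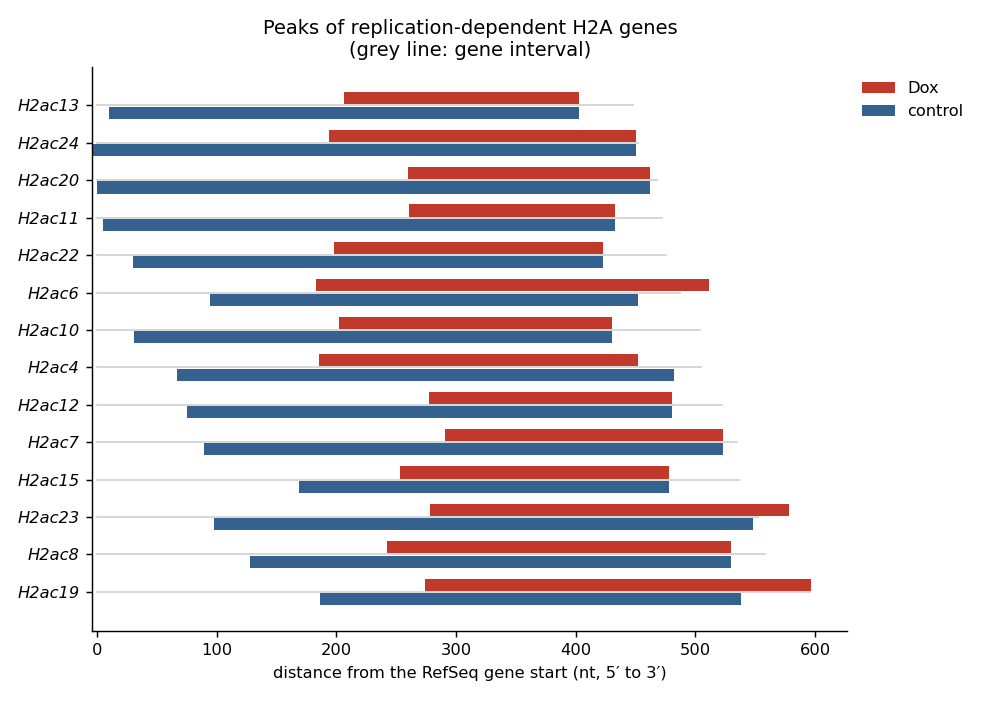
Extent of the single Dox peak (red, upper bar) and control peak (blue, lower bar) on 14 H2ac genes, as distance in nt from the RefSeq gene start, with the gene interval as a grey line. The red bars begin 183 to 291 nt from the start and the blue bars -4 to 186 nt, while most pairs end at the same base.

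H2ac24 was covered from 4 nt before its start to 2 nt before its end by the control peak (fold 7.94, log10 FDR -273), while the Dox peak began 194 nt in (fold 2.08, log10 FDR -62.8). H2ac13, which with H2bc7 was the shortest at 448 nt, had a Dox peak of 197 nt (fold 2.62) and a control peak of 393 nt (fold 10.7) that both ended 45 nt before the gene end. H2ac11 had a Dox peak over 36.4% of the gene (fold 2.17) and a control peak over 90.7% (fold 10). In these 3 genes the printed stretch, with its ATG and the GGAC that follows, lay under the control peak and outside the Dox peak. An ATG with a GGAC 6 bases after its first letter stood in the start windows of 5 of the 16 H2ac genes with a peak and in 22 of all 17492 windows (0.126%). This pattern is that of the printed H2ac stretches, and the 22 windows include the 5, so nothing is read from the contrast. The ratio of Dox over control was nearest to 1 on H2ac22, with folds of 5.42 in Dox and 6.85 in control. H2ac18 stood apart, with 2 peaks in each table, of which 1 lay beyond its interval. The peak within it had the same bounds in both tables and folds of 2.99 in Dox and 5.13 in control. Over its 2 peaks the top fold of H2ac18 was the higher in Dox, at 13.0 against 9.23 in control.

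The H2ac genes are close copies with sequence stretches nearly letter for letter alike, as printed above. Reads of 1 gene can be placed on another, so the 14 genes are not 14 separate observations and the value of any single gene is uncertain. The labels' protocol purified mRNA before the IP, and how much of these messages came through was not measured here.

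The other histone classes were more mixed in coverage, but a lower top fold in Dox was not particular to H2ac genes. All 7 H1 linker histone genes with a peak, of 9, had them in both tables, with median folds of 4.82 in Dox and 10.9 in control. The top fold was the lower in Dox in all 7. Control peaks covered more of the gene in 4 of them and Dox peaks in 3. H1f2 had 1 peak in each table over 66.8% and 66.3% of the gene with folds of 8.84 and 25.4, and H1f3 had peaks over 42.3% in Dox and 80.5% in control with folds of 3.89 and 10.8. On H1f1 and H1f5, unlike the H2ac genes, the Dox peaks covered more of the gene, 86.2% against 70.6% and 63.7% against 37.5%. H2B genes had peaks on 8 of 14, with low median folds of 2.56 in Dox and 2.74 in control, and 2 of the 8 were in the Dox table only. In 3 of the 6 H2B genes in both tables the top fold was the lower in Dox. H2bc7 had the same bounds in both tables and folds of 5.89 in Dox and 4.43 in control, and H2bc11 had weak peaks with folds of 1.90 and 2.87. H3 genes, most of which were added to the histones after their values were seen, had peaks on 7 of 12, of which 2 were in both tables, 3 in Dox only and 2 in control only. The 2 in both tables had the lower top fold in Dox. No peak lay on any of the 12 short H4 genes in either table. The replacement histone gene H2aj, which has a poly(A) tail, had 2 peaks in each table. Its top folds were 11.6 in Dox and 22.1 in control at nearly the same coverage, 44.6% and 46.2%. The other replacement H2A gene, H2az1, had 1 peak in each table, which covered 2.46% of it in Dox and 9.77% in control. The folds on H2az1 were 1.12 in Dox and 2.80 in control. Its Dox peak began 1903 nt from the gene start and its control peak 59 nt.

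Histones were 31 of the 60 genes under 1000 nt with a Dox peak and 30 of the 54 with a control peak. Under 1000 nt, 33 Dox peaks on 31 histone genes had a median fold of 3.13 and 32 control peaks on 30 histone genes 8.92. Other genes of that length had median folds of 4.52 in Dox and 7.79 in control. Among these, Tma7-ps had a peak of 167 nt with the same coverage of 36.3% in both tables and folds of 3.68 and 10.5. From 1000 nt up the medians were 3.9 and 5.49.

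The best supported genes with peaks in the Dox table only had low folds. By highest fold among those with a log10 FDR of -5 or less, these were Cox7a1, a subunit of cytochrome c oxidase (fold 3.52), Zfp36, which binds AU-rich elements and destabilises messages (3.49), Ifitm1, an interferon-induced membrane protein (3.25), Spcs1, of the signal peptidase complex (2.52), Cd68, a glycoprotein known from macrophages (2.44), and Mt2, a metallothionein (2.22). Mt2 had the lowest log10 FDR of them, -130, for a peak of 205 nt over 21.6% of the gene. At that limit, with the other table in full, 10 of 365 short genes were in the Dox table only and 11 in the control table only. These counts were not made for genes in general, so nothing is read from them about short genes.

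Unshared peaks of short genes had higher folds in control as a whole, with a median of 6.15 against 2.68 in Dox. Genes with peaks in the control table only likewise had higher folds, with log10 FDRs of -13.0 or above. By the same rule they were Olig3, a neural basic helix-loop-helix factor (fold 54.1, log10 FDR -13.0), Peg12, an imprinted gene expressed from the paternal copy (48.0, -11.3), Taf10, a subunit of the TFIID and SAGA complexes (26.5, -11.5), H2-T23, a non-classical MHC class I gene (14.8, -8.70), and the histone H3 genes H3c13 (10.3, -5.12) and H3c14 (8.61, -6.20). The Taf10 peak spanned 450 nt, 30.4% of the gene, and like the Peg12 peak it covered a start as called above. Peaks lay on 1 of 12 short homeobox genes and on 2 of 13 short basic helix-loop-helix lineage genes, against 16.5% of all short genes. Nkx2-9 had 2 control peaks and no Dox peak, and Ascl2 had folds of 2.59 in Dox and 18.5 in control at log10 FDRs of -2.05 and -4.81. A gene without a peak in 1 table may lack transcript, reads or the mark there, which these tables cannot tell apart.

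Some peaks of short genes may belong to a neighbour. Of the 652 Dox peaks, 35 (5.37%) shared nucleotides with a peak of another identifier in the same table, and 36 of 648 control peaks (5.56%) did. Part of the peak lay outside the RefSeq interval for 66 Dox and 74 control peaks, and its midpoint for 9 and 15.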

How the data were processed

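m6A was mapped by immunoprecipitation and sequencing of fragmented mRNA with stranded libraries, per the labels' protocols. FastQC 0.11.5, TopHat2 2.1.1 and mm10 are named in the submitters' processing notes, with no role or order. The names of the deposited tables give exomePeak as the peak caller. Its version, settings and annotation were not stated in the labels. Each deposited table pools both replicates of its group. Per the file headers, a peak has a fold enrichment (a ratio of IP over input), a p-value in a column headed score, and the log10 of its p and of its FDR, both treated as scores because some lie below the range of ordinary log values or are -Inf. The scaling of IP against input is likewise not stated, and depth is unknown.

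An Ensembl identifier was given the RefSeq protein-coding gene (GRCm38.p6) on its strand whose interval held the most midpoints of its peaks, with a minimum of 50%. Of several identifiers in a gene, only that with the most peaks was kept. This mapped 8618 of 13110 identifiers. Strand came from the RefSeq promoter windows, which hold 17492 of 21900 protein-coding genes (79.9%), and genes without one were not used in the main counts. Peaks were shared when they had at least 1 exonic nucleotide in common on the same strand. Exonic width is the sum of a peak's blocks. Overlap and mapping were checked on simulated data. Coordinates are 1-based.

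The members and gene lists were chosen with earlier results of these data known. Genes were named by rule, leaving out Gm and Rik symbols: the 5 with most peaks, the 5 shortest in both tables, 6 per table with peaks there only by highest fold at a log10 FDR of -5 or less, 6 whose single control peak had the lowest log10 FDR (19 genes tied at -Inf, and no value decided among them), the 5 most covered by a peak, 3 per gene list by lowest log10 FDR, and 2 on either side of 3000 nt. Not all of these are described. Other named genes, and the split of histones into classes with H3c genes added, were chosen after their values were seen. The software was Python 3.11.15 with scipy 1.17.1, pandas 2.3.3, numpy 2.4.6 and matplotlib 3.10.9.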

Additional observations from a re-analysis of the deposited data

How the results depend on the processing

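No paired analysis was possible because each deposited table pools both replicates, and for the same reason no replicate could be left out. Of 67 recalculated values, 42 stayed within the interval or within 1.5 times the value reported and 25 moved. The share of unshared peaks moved to 13.8% of Dox and 19.7% of control peaks in the stricter lists, to 14.6% of Dox peaks at log10 FDRs of -5 or below in both tables (control 15.8%), to 42.8% of control peaks at a fold of at least 4 (Dox 20.6%), and to 5.92% of Dox and 5.71% of control peaks at log10 FDRs of -5 or below in the counted table. Median width as a share of the gene moved to 21.9%, 20.7%, 21.3% and 24.2% in Dox and to 18.1%, 18.1%, 18.1% and 22.8% in control, in the stricter lists, at a fold of at least 4, at log10 FDRs of -5 or below and under 2000 nt. Genes with peaks in Dox only came to 29, 29, 29, 10 and 22 and those in control only to 54, 107, 43, 11 and 12, in the stricter lists, at a fold of at least 4, at log10 FDRs of -5 or below in both tables, at that limit in the counted table, and under 2000 nt. The totals in turn were 370, 351, 365, 365 and 221 genes, against 465 in the main count, so these counts are not directly comparable with it. In the stricter lists the shares were 7.84% and 14.6%, against 9.74% and 14.2% over all identifiers. Other mapping rules kept all values near. Keeping genes without a strand, leaving out histones and leaving out identifiers with a midpoint outside the gene were chosen after the data were seen and moved none of these. With at least 1 base covered, also chosen later, starts covered in Dox only came to 21. More Dox than control peaks were unshared in the tables as deposited, and fewer in the stricter lists, at a fold of at least 4, and at log10 FDRs of -5 or below in both. Depth is unknown, so what it limits could not be given.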
